A study of Homo sapiens with 6 samples.

Results

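The 10 genes described here are core members of the ATF4 stress response: the transcription factors ATF4, DDIT3 and ATF3, the stress-induced targets CHAC1, TRIB3, SESN2 and DDIT4, and the amino acid enzymes ASNS, PHGDH and PSAT1. They were listed by symbol, and all 10 were found among the 14200 genes of the deposited expression table. Poly(A) RNA of Huh7 cells, a human liver cancer line, was sequenced from a stranded kit in 3 control libraries and in 3 libraries of cells in which SETD5, encoding a SET-domain protein of chromatin, had been silenced with siRNA delivered by RNAiMAX. The labels give the groups as control and SETD5-deficient, are silent on what the control cells received and on whether each library had its own culture. A p-value here therefore reflects the spread among libraries, possibly a technical one. The cells carry no other stated alteration and were grown in DMEM with fetal bovine serum and an antibiotic-antimycotic.

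ATF4 is a basic leucine zipper (bZIP) transcription factor that acts late in the integrated stress response. When unfolded protein in the endoplasmic reticulum, lack of amino acids, viral RNA or lack of heme activates a kinase of the translation factor eIF2, most protein synthesis slows while translation of the ATF4 message rises through upstream open reading frames. The ATF4 protein then pairs with other bZIP proteins on composite C/EBP-ATF elements and induces genes for amino acid supply, redox balance and, under lasting stress, cell death. Since control of ATF4 is largely translational, the level of its message is not a measure of its protein, which is not analysed here.

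A composite element of this kind, searched for as TGATGNAA on either strand, was present in the 250 bases before a RefSeq transcription start of 3 of the 10 genes, CHAC1, ASNS and ATF3. These and DDIT4 are shown because CHAC1, ASNS and DDIT4 had the largest rises of the 10 genes, and ATF3, with a match, did not pass the test. Sequences are from RefSeq on GRCh38.p14, 5′ to 3′ along the gene, and end at the base before the start. Capitals mark the match. The CHAC1 window lies at chr15:40953221-40953470 (plus strand), the ASNS window at chr7:97872409-97872658 (minus strand) and the DDIT4 window at chr10:72273674-72273923 (plus strand).
CHAC1: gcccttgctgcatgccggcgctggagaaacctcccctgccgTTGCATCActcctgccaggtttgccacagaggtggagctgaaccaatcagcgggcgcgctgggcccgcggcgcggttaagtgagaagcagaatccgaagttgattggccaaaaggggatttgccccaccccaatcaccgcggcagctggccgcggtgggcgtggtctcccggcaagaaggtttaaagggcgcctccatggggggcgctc
ASNS: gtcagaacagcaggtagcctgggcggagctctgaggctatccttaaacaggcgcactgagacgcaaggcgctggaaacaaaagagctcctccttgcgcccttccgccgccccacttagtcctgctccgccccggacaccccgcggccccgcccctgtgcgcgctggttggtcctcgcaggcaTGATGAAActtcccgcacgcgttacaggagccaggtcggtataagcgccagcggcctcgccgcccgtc
DDIT4: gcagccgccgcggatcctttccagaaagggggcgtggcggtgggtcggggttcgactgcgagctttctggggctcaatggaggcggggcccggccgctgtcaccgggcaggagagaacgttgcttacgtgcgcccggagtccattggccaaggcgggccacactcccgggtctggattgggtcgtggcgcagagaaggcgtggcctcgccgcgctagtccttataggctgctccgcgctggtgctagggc
ATF3, 30 bases around the match at chr1:212565205-212565234 (plus strand): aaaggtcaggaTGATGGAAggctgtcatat
The match began at -209 from the start in CHAC1 (as TTGCATCA, the reverse strand), at -68 in ASNS (as TGATGAAA) and at -191 from the first listed start of ATF3 (as TGATGGAA). The ASNS promoter is a textbook example of such an element. The windows of the second listed starts of ASNS and ATF3 held no match, and which start these cells used was not determined. Among all 35116 RefSeq starts, 3.14% had a match in a window of the same length, and among all 27305 genes 3.89% had a match at some start. The windows of DDIT4, DDIT3, ATF4, TRIB3, SESN2, PHGDH and PSAT1 do not hold these letters, which says only that they are not within 250 bases of the starts listed.

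The CCAAT box, bound by NF-Y, occurred in 7 of the 10 genes on either strand, against 37% of all genes. CHAC1 and PSAT1 each held 3 copies, and DDIT4, DDIT3 and SESN2 each held 2. ATF4 held an E-box, CACGTG, at -82 from its first listed start, a word present in 7.73% of genes. DDIT3 held an AP-1 word, TGACTCA, at -241 from its first listed start, found when TGANTCA was searched for, which 8.06% of genes had. The cyclic AMP response element TGACGTCA was in none of the 10 genes and in 2.03% of all genes. These matches are descriptions of letters, and no binding was measured.

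**Figure D1:**
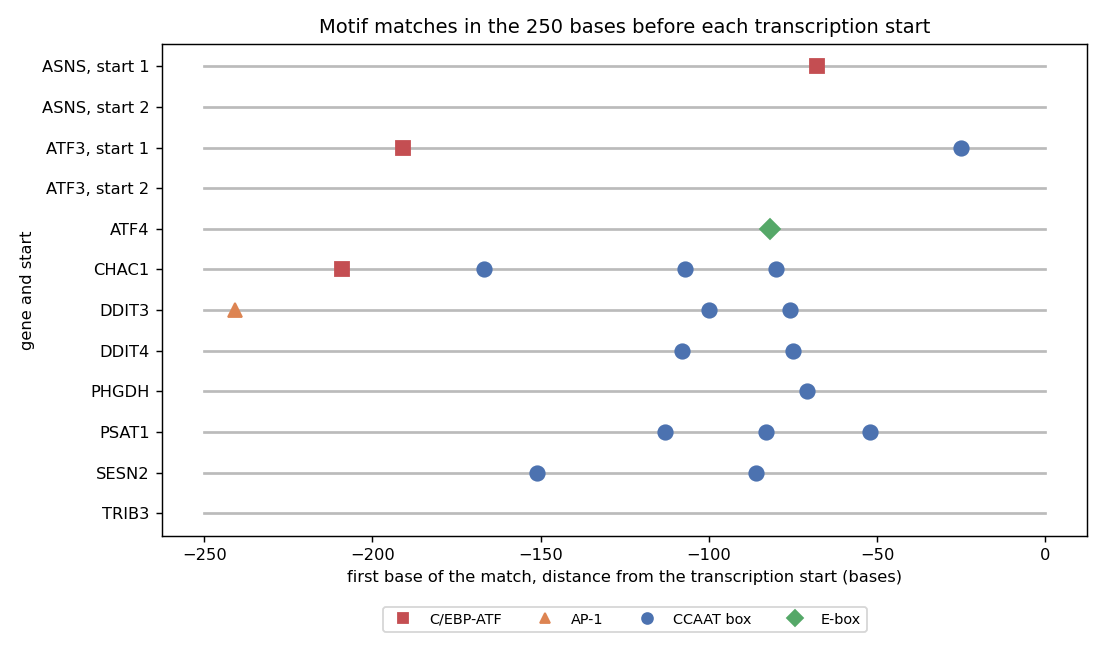
Motif matches (symbols) in the 250 bases before the transcription start of each gene, by distance of the first base of the match from the start, with both starts drawn for ASNS and ATF3 and the first listed start for the others. The C/EBP-ATF word appears at -68 in ASNS, -191 in ATF3 and -209 in CHAC1, and CCAAT boxes appear in 7 genes.

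The 6 libraries held 14038447 to 17095417 recovered reads, and levels are given as CPM, reads scaled by library depth, computed as 2 to the power of the deposited value minus 1. SETD5, the siRNA target, was at 202 to 212 CPM in the controls and at 136 to 140.4 CPM in the knockdown libraries, without overlap, and an exact two-sided permutation test gave p = 0.1, the smallest that 3 against 3 libraries allow. The 12 hepatocyte markers checked were all in the table and summed to 45165 to 46180 CPM in the controls and 41979 to 42271 CPM after knockdown. The largest part was AFP, at means of 21336 CPM in the controls and 20268 CPM after knockdown. At a limma adjusted p under 0.05, 8 of the 12 fell and 3 rose, where 26.5% of all tested genes fell and 25.7% rose. Their median log2 fold change was -0.21, from -0.69 for TTR to 0.23 for FGB. Of 6 fibroblast markers 5 were in the table (174 to 183 and 319 to 327 CPM in sum, mostly the collagen gene COL1A2), of 6 immune markers 4 (261 to 287 and 629 to 707 CPM, mostly the lysozyme gene LYZ, with the leukocyte gene PTPRC at means of 1.13 and 1.59 CPM), and of 5 endothelial markers 2 (0.614 to 1.35 CPM over all libraries). The sums hold genes that moved the other way: the pericyte and fibroblast receptor PDGFRB fell to 0.722 times and the monocyte gene CD14 to 0.485 times the control (limma adjusted p = 1.42e-06 and 8.3e-06). None of the listed markers found was at 0 in any library, and the part of these shifts in the results below was not tested.

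Whether the ATF4 response differed after SETD5 depletion was read from the 10 genes' rows in a limma fit of all 12865 genes whose mean reached 1 CPM, with p-values adjusted over all of them by the Benjamini-Hochberg method. All 10 genes passed this level filter. Of them, 8 rose at an adjusted p under 0.05, none fell and 2 were not called. Changes were common in this comparison: 52.1% of all tested genes were called, 25.7% higher and 26.5% lower, so any 1 call is near the background, and the 8 of 10 higher is to be read against 25.7%. The median log2 fold change of the 10 genes was 0.21, against -0.0012 for all tested genes. The genes were chosen with earlier results of these data known, so this count and this median are given as a description. Fold changes were computed from log2(CPM + 1), and the added 1 shrinks those of low genes. The 2 groups of libraries were without overlap in 7 of the 10 genes, all 7 higher after knockdown. Among all tested genes 57.3% did not overlap, and 28.6% did not overlap and were higher. In a bulk culture, more cells with a response and more RNA per cell cannot be told apart.

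**Figure D2:**
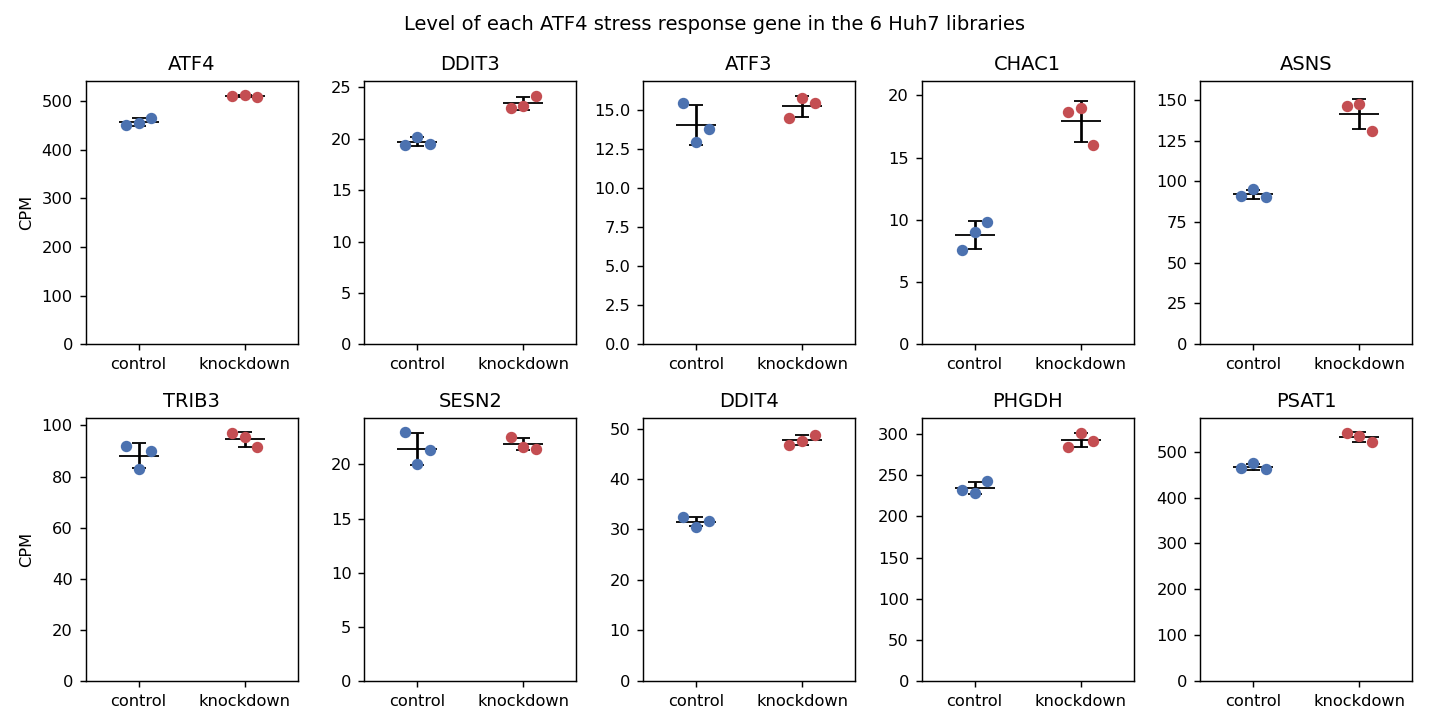
Level in CPM (vertical axes, each starting at 0) of the 10 genes in the 3 control and 3 knockdown libraries, drawn in order of library number, with points for libraries and bars for the mean ± SD. The groups are apart for ATF4, DDIT3, CHAC1, ASNS, DDIT4, PHGDH and PSAT1 and overlap for ATF3, TRIB3 and SESN2.

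Among the transcription factors, the ATF4 message was at 450.3, 455 and 465 CPM in controls 1 to 3 and at 509, 512 and 507 CPM in knockdown libraries 1 to 3. Every knockdown value was above every control value. The knockdown libraries had a CV of 0.476%, below the 1.10% that counting reads alone would give, and the controls one of 1.66%, above 1.21%. The means were 457 ± 7.57 CPM (SD, n = 3) and 509 ± 2.43 CPM (SD, n = 3), a log2 fold change of 0.16 with a 95% interval from 0.10 to 0.21 (limma adjusted p = 4.2e-06). The rise was small, and 3085 of the 12865 tested genes had a higher fold change.

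DDIT3 encodes CHOP, a bZIP factor induced by ATF4 and linked to cell death under lasting stress. It was at 19.4, 20.2 and 19.5 CPM in the controls and at 23.0, 23.2 and 24.2 CPM after knockdown. The groups did not overlap, and the log2 fold change was 0.24 (95% interval 0.11 to 0.37, limma adjusted p = 0.00182). The spread of DDIT3 within groups, a CV of 2.23% and 2.65%, was below the 5.81% and 5.11% that counting 273 to 404 reads alone would give.

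ATF3, a bZIP factor that ATF4 and other stress signals induce, was at 15.5, 12.95 and 13.8 CPM in the controls and at 14.5, 15.8 and 15.5 CPM after knockdown. Control 1 lay among the knockdown libraries. The log2 fold change of 0.11 had an interval from -0.05 to 0.27 and did not pass (limma adjusted p = 0.240). The values rest on 186 to 264 reads per library. The CV was 9.06% in the controls and 4.37% after knockdown, where counting alone would give 6.92% and 6.34%. The log2 fold change was 0.058 without control replicate 2 and 0.18 without control replicate 1, and passed in neither.

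Of the stress-induced targets, CHAC1 showed the largest rise of the 10 genes. It encodes a cytosolic enzyme that breaks down glutathione. Its level was 7.61, 8.98 and 9.79 CPM in the controls and 18.7, 19.0 and 16.0 CPM after knockdown. All 3 knockdown values were well above the controls. The knockdown mean was 2.04 times the control mean, and the log2 fold change was 0.95 (95% interval 0.77 to 1.13, limma adjusted p = 2.41e-11). Only 95 tested genes had a higher fold change. These values rest on 129 to 310 reads per library, and the CV within groups of 12.5% and 9.17% was above the 8.71% and 5.86% that counting alone would give.

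DDIT4 encodes REDD1, which restrains the growth-controlling kinase complex mTORC1 through the TSC complex and responds to low oxygen and glucocorticoids as well as to ATF4. It was at 32.4, 30.6 and 31.7 CPM in the controls and at 46.7, 47.6 and 48.7 CPM after knockdown. The groups did not overlap, at 31.5 ± 0.908 and 47.7 ± 1.03 CPM (SD, n = 3 per group). The CV within groups of 2.88% and 2.16% was below the 4.60% and 3.59% that counting alone would give. The knockdown mean was 1.51 times the control (log2 fold change 0.58, 95% interval 0.48 to 0.68, limma adjusted p = 3.69e-12).

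SESN2, which encodes Sestrin 2, a leucine sensor that also restrains mTORC1, was at 23.0, 20.1 and 21.3 CPM in the controls and at 22.5, 21.6 and 21.5 CPM after knockdown. The knockdown values lay inside the control range. Its log2 fold change was 0.03 with an interval from -0.11 to 0.16 (limma adjusted p = 0.750), and it was -0.02 without control replicate 2.

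TRIB3, a pseudokinase induced by ATF4 and CHOP that feeds back on the response, was at 91.8, 82.9 and 90.03 CPM in the controls and at 96.9, 95.3 and 91.4 CPM after knockdown. The lowest knockdown library, 3, was below control 1. The log2 fold change of 0.10 (95% interval 0.02 to 0.18) passed narrowly, with a limma adjusted p of 0.0352. The call ended in 4 of 13 alternatives: without control replicate 2 (log2 fold change 0.06, adjusted p = 0.252), without knockdown replicate 1 (adjusted p = 0.152) or 2 (adjusted p = 0.0776), and in a limma fit with no trend term (adjusted p = 0.156).

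The amino acid enzymes all rose. ASNS, which makes asparagine from aspartate and glutamine, was at 90.8, 95.2 and 90.03 CPM in the controls and at 146, 147 and 131 CPM after knockdown. Knockdown 3 was the lowest of its group and still above every control. The knockdown mean was 1.54 times the control (92.0 ± 2.79 and 141 ± 9.26 CPM, SD, n = 3 per group; log2 fold change 0.61, 95% interval 0.53 to 0.69, limma adjusted p = 1.49e-15). Reads from the annotated read-through transcript CZ1P-ASNS could also be counted for ASNS, depending on the authors' counting.

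PHGDH and PSAT1 catalyse the first and the second step of serine synthesis from the glycolytic intermediate 3-phosphoglycerate. PHGDH was at 233, 229 and 243 CPM in the controls and at 284, 301 and 292 CPM after knockdown. The groups did not overlap, and the log2 fold change was 0.31 (95% interval 0.25 to 0.38, limma adjusted p = 6.61e-11). PSAT1 was at 465, 475 and 462 CPM in the controls and at 541, 535 and 521 CPM after knockdown. Its groups did not overlap either, with a smaller log2 fold change of 0.19 (95% interval 0.13 to 0.24, limma adjusted p = 2.57e-07). The intervals of the 2 enzymes are apart, but the reads of PSAT1 per read of PHGDH, not corrected for length, overlapped between the groups at 1.90 to 2.08 in the controls and 1.78 to 1.91 after knockdown.

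**Figure D3:**
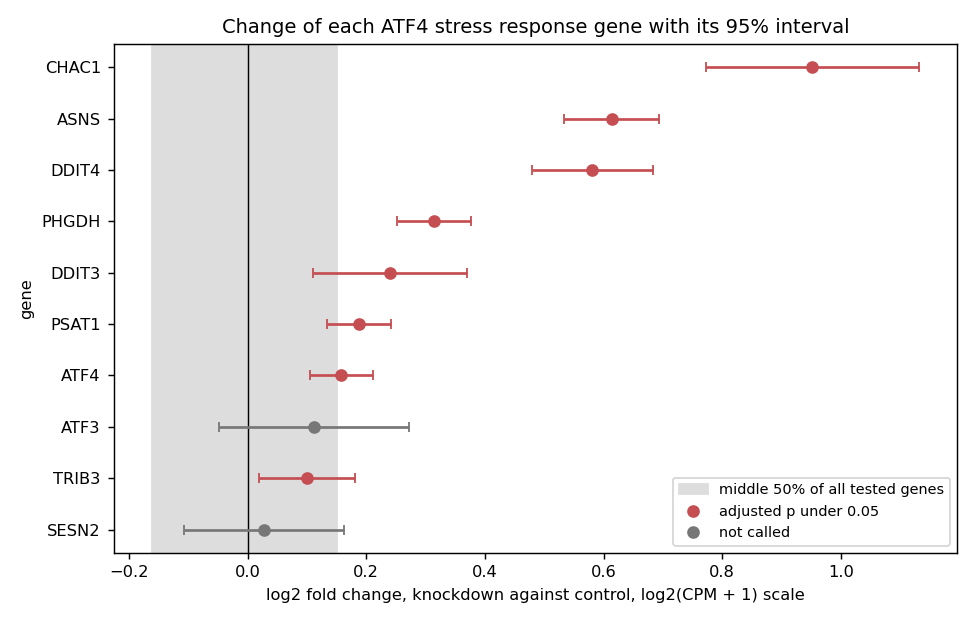
Log2 fold change (horizontal axis) of each of the 10 genes with its 95% interval, with called genes in red and the shaded band holding the middle 50% of all tested genes. CHAC1, ASNS and DDIT4 lie at 0.95, 0.61 and 0.58, and the intervals of ATF3 and SESN2 cross 0.

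The log2 fold changes ran from 0.03 to 0.95. Of the 10 genes, 3 had a log2 fold change of at least 0.5 (CHAC1, ASNS and DDIT4), 4 were between 0.15 and 0.35 (PHGDH, DDIT3, PSAT1 and ATF4), and TRIB3, ATF3 and SESN2 were below. In all, 4 lay among the 10% of tested genes with the highest fold changes, CHAC1, ASNS, DDIT4 and PHGDH. The reads of CHAC1 per read of ATF4 were 0.0169 to 0.0211 in the controls and 0.0316 to 0.0372 after knockdown. For ASNS this ratio was 0.194 to 0.209 and 0.258 to 0.288, and for DDIT4 it was 0.0673 to 0.0719 and 0.0916 to 0.0961. The ratio of DDIT3 was 0.0419 to 0.0444 and 0.0451 to 0.0477. These 4 ratios were higher after knockdown without overlap, while that of TRIB3 overlapped, at 0.182 to 0.204 and 0.180 to 0.190. How many of all tested genes do not overlap on this ratio was not computed. For DDIT3 the groups came as near as 0.0444 and 0.0451, while counting alone gives its reads a CV of 5.81% and 5.11%. Its log2 fold change interval, 0.11 to 0.37, holds the 0.16 of ATF4, so a rise of DDIT3 beyond that of ATF4 was not shown. Knockdown 3 was the lowest of its group for 6 of the 10 genes, CHAC1 and ASNS among them, but the highest for DDIT3 and DDIT4.

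Upstream of ATF4, none of the 4 eIF2 kinases was called, where 52.1% of all tested genes were. EIF2AK3 (PERK, the kinase of the endoplasmic reticulum) was at 68.9 and 65.4 CPM in the control and knockdown means and EIF2AK4 (GCN2, the amino acid sensor) at 46.6 and 43.2 CPM, with limma adjusted p-values of 0.142 and 0.0544. EIF2AK1 and EIF2AK2 had log2 fold changes of 0.06 and 0.03, and that of EIF2AK2 turned to -0.095 without control replicate 3 and to -0.00038 without knockdown replicate 1. EIF2AK3 passed, as lower, without knockdown replicate 1 (adjusted p = 0.0429), and EIF2AK4 in the limma fit with no trend term (adjusted p = 0.0468). PPP1R15A (GADD34), the ATF4-induced phosphatase subunit that reverses eIF2 phosphorylation, rose from 57.1 ± 2.83 to 79.5 ± 1.06 CPM (limma adjusted p = 9.09e-12). Of the 19 genes of the eIF2 list, 4 rose and 2 fell, with a median of 0.03, where 25.7% of all tested genes rose and 26.5% fell. The falls were OMA1, a mitochondrial protease that relays stress to eIF2, from 12.4 ± 1.02 to 8.99 ± 1.40 CPM, and DNAJC3, an inhibitor of PERK, to 0.859 times the control. EIF2S2, a subunit of eIF2, stood at 379 and 386 CPM and was not called.

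The bZIP genes that can pair with ATF4 rose in 6 and fell in 2 of 11 tested cases, with a median of 0.21. Of all tested genes 25.7% rose and 26.5% fell. CEBPD had the largest change, from 6.88 ± 0.128 to 10.9 ± 0.772 CPM (limma adjusted p = 1.08e-06), and JDP2 rose to 1.34 times the control. NFE2L2, which encodes the oxidative stress regulator NRF2, fell from 487 ± 20.7 to 387 ± 2.09 CPM. ATF2 was at 151 and 156 CPM without being called.

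Of 11 tested amino acid transporters 7 rose and 1 fell, with a median of 0.26. This count, and that of the enzymes below, stands beside 25.7% of all tested genes that rose and 26.5% that fell. SLC7A11, the cystine transporter, and SLC3A2, its heavy-chain partner, had log2 fold changes of 0.52 and 0.43. The neutral amino acid transporters SLC38A1 and SLC38A2 rose from 296 ± 6.83 to 385 ± 16.6 CPM and from 605 ± 18.5 to 748 ± 27.1 CPM. Other amino acid enzymes were mixed, 5 of 11 higher and 3 lower, with a median of 0.07. GPT2, a mitochondrial alanine transaminase, rose from 74.3 ± 5.40 to 109.6 ± 4.54 CPM, CBS, which makes cystathionine, rose to 1.43 times and glutamine synthetase GLUL to 1.38 times the control. The aspartate transaminase GOT1 fell from 132 ± 2.52 to 94.0 ± 3.14 CPM.

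Of 13 other serine, glycine and one-carbon enzymes, 2 rose as PHGDH and PSAT1 did and 5 fell, with a median of -0.03. The shares over all tested genes were 25.7% higher and 26.5% lower. PSPH, which catalyses the last step of serine synthesis after PSAT1, fell from 201 ± 2.36 to 163 ± 3.89 CPM (log2 fold change -0.30, limma adjusted p = 2.47e-10). Glycine decarboxylase GLDC fell from 205 ± 4.58 to 152 ± 8.07 CPM. SHMT2, the mitochondrial enzyme that turns serine into glycine, rose to 1.08 times the control. Of the 3 enzymes of serine synthesis, the first and second were thus higher and the last lower after knockdown, each without overlap between the groups.

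Among 20 cytosolic aminoacyl-tRNA synthetases, many of them ATF4 targets, 9 rose and 4 fell, with small changes and a median of 0.06. CARS rose to 1.22, AARS to 1.19 and HARS to 1.16 times the control, and IARS fell to 0.929 times the control, a call that ended in the limma fit with no trend term (adjusted p = 0.0601). Of 19 tested other stress targets 9 rose and 4 fell, with a median of 0.05. Both lists are to be read against the 25.7% of all tested genes that rose and the 26.5% that fell. KLHL24, a kelch-family gene, rose from 20.6 ± 1.85 to 42.2 ± 0.774 CPM, with a log2 fold change of 1.01. The BH3-only death genes BCL2L11 and BBC3 rose from 44.7 ± 1.92 to 64.9 ± 2.15 CPM and from 3.76 ± 0.344 to 4.96 ± 0.329 CPM. The BBC3 call ended without control replicate 2 (adjusted p = 0.0520), control replicate 3 (0.0520) or knockdown replicate 1 (0.0671). The autophagy receptor SQSTM1 rose to 1.09 times the control.

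The ATF6 and XBP1 arms of the unfolded protein response, which act beside PERK and ATF4 when the endoplasmic reticulum is stressed, moved in the other direction. Of 20 tested genes 14 fell and none rose, with a median of -0.15 and a highest log2 fold change of -0.02, where 26.5% of all tested genes fell. EDEM1, WFS1, HSP90B1 and the chaperone HSPA5 (BiP) were at 0.567, 0.756, 0.820 and 0.897 times the control. Over all the neighbouring lists, which together hold 153 tested genes outside the 10, 50 genes rose and 44 fell. Over all tested genes the shares were 25.7% and 26.5%.

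**Figure D4:**
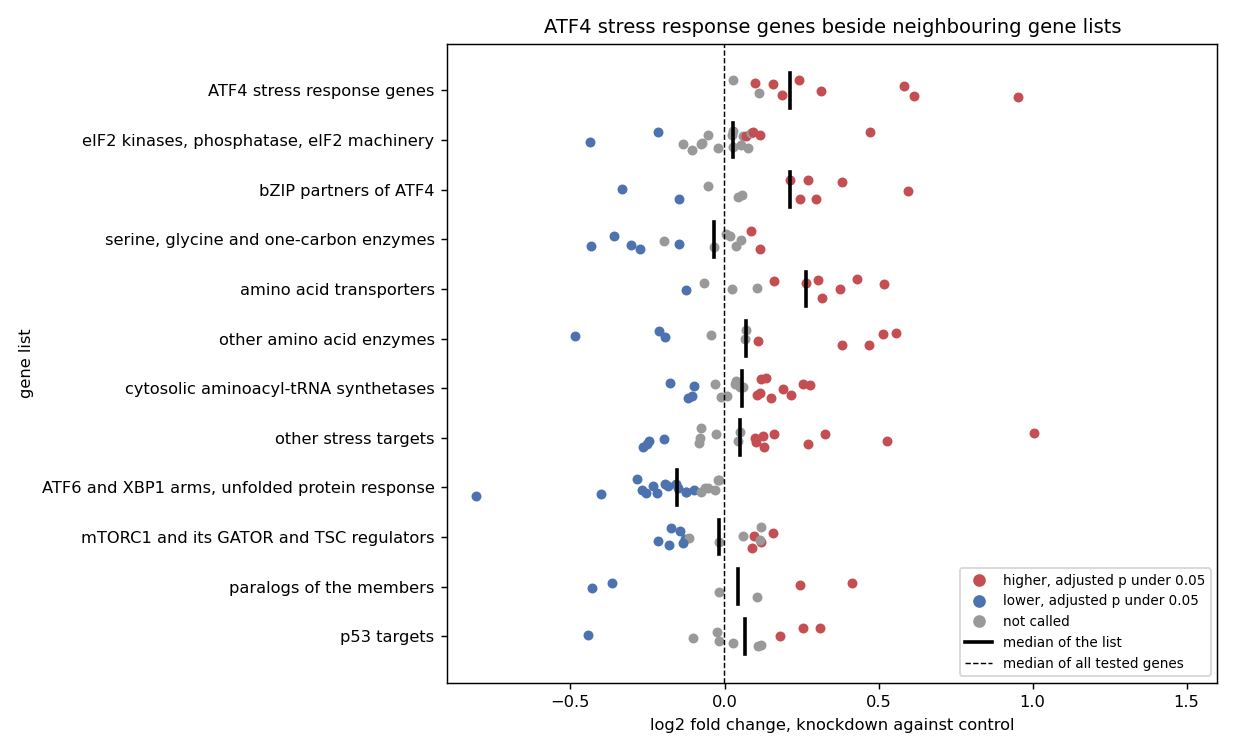
Log2 fold change (horizontal axis) of every tested gene in the 10 ATF4 stress response genes and 11 neighbouring lists, with points for genes, colours for the call, thick bars for list medians and a dashed line for the median of all tested genes. The medians of the 10 genes, the bZIP partners and the amino acid transporters lie at 0.21, 0.21 and 0.26, and that of the ATF6 and XBP1 arms at -0.15.

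The genes whose pattern over the 6 libraries was most like that of CHAC1, ASNS and DDIT4 were taken by the smallest root mean square difference in log2 level after subtracting each gene's control mean. For CHAC1 they were FAM171A2, KCNJ3 and ATL3, with differences of 0.088 to 0.101. For ASNS they were PDE3A, SYNE2 and FLRT2 (0.030 to 0.039), and for DDIT4 they were FAM53C, DAPK1 and TOB2 (0.014 to 0.024). The ASNS neighbours shared the lower value in knockdown 3, as with PDE3A at 199, 208 and 183 CPM in knockdown libraries 1 to 3. Knockdown 3 was among the 6 libraries used to pick them, so this likeness follows from the selection. These likenesses rest on 6 libraries in 2 groups and are given as a description.

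The 6-base word GCACCT, which an earlier analysis of these data had searched for in 3' UTRs, was looked for in the 3' UTR of 1 GENCODE 29 transcript per gene. Of the 10 genes only SESN2 held it, against 27.2% of the 11610 tested genes with a 3' UTR. SESN2 had the longest 3' UTR of the 10, at 1689 bases. Those of TRIB3, ATF4, ASNS, PHGDH and DDIT3 were 58 to 220 bases long. A longer 3' UTR has more places for the word, and the comparison was not corrected for length. Genes with the word had a median log2 fold change of -0.038 and genes without it 0.014.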

How the data were processed

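The authors deposited 1 table of log2 values, named as normalized CPM in log2, with 6 columns matched to the samples by their titles. Per the submitters' processing notes, STAR 2.5.1 and R 3.3.0 were used, with the builds hg19 and mm10 named without roles. The sources used here name no method for counting, use of strand, scaling or gene filters. In every column 2 to the power of the deposited log2 value, minus 1, gave whole multiples of 1 read (100% of values within 0.01), so the values are log2(CPM + 1). The columns summed to 993401 to 1.00433e+06 CPM and not to the same total. The scaling was thus not by the sum of the listed reads alone.

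Levels are means ± SD of CPM. Deposited values of genes whose mean reached 1 CPM were tested with limma 3.58.1 (R 4.3.3; lmFit, then eBayes with trend = TRUE; two-sided; group the only term), which left out 1335 genes, with Benjamini-Hochberg adjustment over the 12865 tested and a threshold of 0.05. The script was tested on simulated data. Each library was counted as 1 replicate. A chi-square per gene of recovered reads was 1.26 to 2.15 for pairs within a group and 20.6 to 25.3 for pairs across groups. The values across groups hold the difference between the groups. Those within a group do not tell separate cultures from repeat libraries of 1 culture.

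The genes and the lists were chosen with earlier results of these data known. From each list the text names up to 3 called genes with the largest absolute change and 1 further gene with the highest level. A gene that the rule names is not reported here. Beyond that rule, the 4 eIF2 kinases and the markers AFP, TTR, FGB, COL1A2, LYZ, PTPRC, PDGFRB and CD14 were named after their values were seen, as were the mTORC1 genes below. The genes most like a member needed a mean of at least 5 CPM. Promoters were searched in the RefSeq table on GRCh38.p14, in which all 10 genes matched by symbol, and 3' UTRs came from GENCODE 29 (longest coding sequence, then longest 3' UTR), which covered 90.2% of the tested genes.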

Additional observations from a re-analysis of the deposited data

How the results depend on the processing

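Of the 10 genes, 7 were called higher in all 13 alternatives, and TRIB3, the remaining called gene, lost its call in 4. SESN2 turned to -0.018 without control replicate 2 (-0.018 to 0.077 over the fits that left out 1 library), and neither it nor ATF3 was called in any alternative. The number called among the 10 was 7 or 8 throughout, all higher. The log2 fold change of SETD5 was -0.61 to -0.57, and over all genes 5868 to 6898 were called. Of 60 other named genes 49 kept direction and side of the threshold in every alternative, and 1 reversed: EIF2AK2, never called, ran from -0.095 to 0.11 over the fits that left out 1 library, with -0.095 without control replicate 3 and -0.00038 without knockdown replicate 1. Whether the replicate numbers of the labels pair the libraries could not be told. Deviations from the group mean correlated at -0.011, 0.054 and 0.042 for same-numbered libraries and at -0.060 to 0.021 for the others. Not every library correlated best with its own number. The replicate block called 6898 genes in place of 6706 and 8 of the 10 genes. Limma voom on the recovered reads and scaling every library to the same total were added after seeing the data, and gave 8 of the 10 each. The planned edgeR, DESeq2 and TMM alternatives were not run, and voom was the only count-based fit. Low counts limit ATF3, CHAC1, DDIT3 and SESN2 most.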

Other observations

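SESN2 and DDIT4 act on mTORC1. Of the 15 tested genes of mTORC1 and its GATOR and TSC regulators 4 rose and 6 fell, where 25.7% of all tested genes rose and 26.5% fell, and the median log2 fold change was -0.02, between -0.22 and 0.16. SEH1L and SEC13, shared by the GATOR2 complex and the nuclear pore or COPII coat, fell to 0.860 and 0.911 times the control. WDR24 and NPRL2 fell to 0.874 and 0.880 times, and each call ended in 8 of 13 alternatives, with adjusted p-values up to 0.184 and 0.237. TSC1 and TSC2, through which DDIT4 acts, rose to 1.09 and 1.11 times the control (limma adjusted p = 0.00947 and 0.00897), and MTOR itself to 1.06 times (adjusted p = 0.0401). The groups overlapped for TSC2 and MTOR. The calls of TSC1, TSC2 and MTOR ended in 3, 4 and 5 of 13 alternatives, with adjusted p-values up to 0.0696, 0.108 and 0.310, each of them in the fit with no trend term and without control replicate 3, TSC2 also without control replicate 2 or knockdown replicate 1, MTOR without control replicate 1 or knockdown replicate 1 or 2, and TSC1 without knockdown replicate 3.

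Close relatives of the 10 genes did not move with them as a group. CHAC2, the constitutive relative of CHAC1, fell from 13.2 ± 0.855 to 10.0 ± 0.728 CPM, TRIB2 fell from 4.95 ± 0.0525 to 3.43 ± 0.452 CPM, and SESN3 rose from 46.6 ± 1.12 to 62.5 ± 1.08 CPM. ATF5, a bZIP relative of ATF4 with a message under similar translational control, rose from 28.7 ± 2.29 to 34.2 ± 2.09 CPM. Several of the 10 genes also respond to p53, and of 10 tested p53 targets 3 rose and 1 fell, with a median of 0.07. Of all tested genes 25.7% rose and 26.5% fell. ZMAT3 and TIGAR rose to 1.25 and 1.203 times the control, MDM2 was at 75.3 and 74.1 CPM and was not called, and the cell cycle inhibitor CDKN1A fell from 3.06 ± 0.611 to 1.98 ± 0.309 CPM. The CDKN1A call ended without control replicate 2 (adjusted p = 0.0731) and without knockdown replicate 1 (0.0552).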
